A study of Homo sapiens with 4 samples.

Results

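The 10 integrin subunit genes ITGA2, ITGA3, ITGA5, ITGA6, ITGA10, ITGAX, ITGAE, ITGB1, ITGB2 and ITGB5 were followed by their symbols through a table of 9885 genes from 4 RNA-seq libraries of the human ovarian cancer line HeyA8. The 10 genes comprise 7 α and 3 β subunit genes. Of the other integrin subunit genes of the lists used, only ITGAV and ITGA1 were found by symbol among the 9885 genes. A8 is the parental HeyA8 line. A8i is HeyA8 with stable silencing of ECM1, an extracellular matrix protein gene, by a lentiviral short hairpin RNA. A8i-A is A8i that also expresses HA-tagged ECM1a from a cDNA, and A8i-B is A8i that also expresses HA-tagged ECM1b. The 3 derived lines therefore share the hairpin, and A8 carries neither hairpin nor vector. A line with a scrambled hairpin and a line with an empty vector were not analysed here, so that silencing of ECM1 cannot be told apart from infection and drug selection in A8i against A8. Each line gave 1 library, and every difference given is between 2 libraries, with no replicate check and no p.

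Each value is the number of events listed for a gene, a whole number between 0 and 32. The kind of event and the program that counted it are not given in the sources used here. An event number is not an expression level, and a gene with fewer transcripts in the library cannot be told apart from a gene with fewer kinds of event; as in any bulk sample, fewer cells of a type and less RNA per cell cannot be told apart either. The libraries held 20535 (A8i) to 24513 (A8) events over 7290 to 8126 genes with an event. The median gene had 1 or 2 events in a library, and 167 genes were listed at 0 in all 4. The silenced gene, ECM1, was listed with 2 events in each library and so gave no check of the labels. Among the epithelial and ovarian carcinoma markers, 6 of 9 were in the table, with 15 to 21 events per library; PAX8, the Müllerian transcription factor gene, was listed with 11, 7, 7 and 7 events in A8, A8i, A8i-A and A8i-B, KRT8, an epithelial keratin gene, with 7, 5, 5 and 6, and EPCAM, an epithelial adhesion gene, with 0 in all 4.

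Integrins are membrane receptors built from 1 α and 1 β chain. The α chain largely sets which matrix protein or cell surface ligand is bound, and the cytoplasmic tail of the β chain recruits talin, kindlin and other adaptors that link the receptor to actin and to focal adhesion kinase. The β1 chain pairs with many α chains and is the common partner in carcinoma cells, whereas β2 is known from leukocytes, where αXβ2 (CD11c/CD18) binds fibrinogen and complement fragments. The αXβ2 pair is the receptor that the study followed up as a partner of ECM1a.

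The pre-mRNAs of α subunits are known to be spliced in alternative ways, and the tails of α3 and α6 are the textbook case. Exons that at least 1 annotated transcript leaves out were therefore read from GRCh37 with the GENCODE v44 annotation for the members on which the results turn. The event table gives no positions, so these exons show where the annotation places alternative sequence and not where an event was counted. Coding exon bases are in capitals, and 20 bases of each flanking intron are in lower case. The αX and β2 exons are shown because the pair is compared below, and the ITGA10 exon because this gene had the widest range over the libraries.
ITGAX exon 20, chr16:31384570-31384711, forward strand, 142 nt, left out by 1 noncoding transcript: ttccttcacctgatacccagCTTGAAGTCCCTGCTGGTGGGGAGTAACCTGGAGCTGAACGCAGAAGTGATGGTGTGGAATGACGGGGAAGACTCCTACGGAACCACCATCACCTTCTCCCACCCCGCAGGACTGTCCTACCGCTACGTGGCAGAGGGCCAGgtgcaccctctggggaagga
ITGB2 exon 5, chr21:46323280-46323450, reverse strand, 171 nt, left out by 1 coding transcript: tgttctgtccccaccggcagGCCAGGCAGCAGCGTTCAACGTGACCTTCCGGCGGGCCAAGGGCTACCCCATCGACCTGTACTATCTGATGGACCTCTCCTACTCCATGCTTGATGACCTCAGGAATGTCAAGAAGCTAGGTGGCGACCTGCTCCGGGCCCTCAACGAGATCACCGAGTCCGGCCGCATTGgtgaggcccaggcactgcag
ITGA10 exon 5, chr1:145528570-145528684, forward strand, 115 nt, left out together with exons 2, 3 and 4 by 1 coding transcript: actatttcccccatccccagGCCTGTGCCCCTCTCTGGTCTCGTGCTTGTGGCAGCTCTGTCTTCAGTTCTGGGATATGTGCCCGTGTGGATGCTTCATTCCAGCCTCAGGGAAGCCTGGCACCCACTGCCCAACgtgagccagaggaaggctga

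The length of the ITGB2 exon is a whole number of codons, so leaving it out keeps the reading frame, which does not hold for the ITGAX exon. This holds for the exons shown and not for the genes. Another ITGAX exon that a transcript leaves out, exon 18 of 132 nt, is a whole number of codons. ITGB2 exon 4 of 181 nt, also left out by a transcript, is not. In all 3 exons shown, the intron before the exon ends in AG and the intron after it begins with GT. The laminin receptor subunits α3 and α6 share the design of their last alternative exon. With exon 25 the mRNA encodes the A form of the cytoplasmic tail, and without it the B form. Both exons are shown up to and including the stop codon.
ITGA3 exon 25, chr17:48165589-48165730, forward strand, 142 nt, of which 111 coding, left out by 1 coding transcript: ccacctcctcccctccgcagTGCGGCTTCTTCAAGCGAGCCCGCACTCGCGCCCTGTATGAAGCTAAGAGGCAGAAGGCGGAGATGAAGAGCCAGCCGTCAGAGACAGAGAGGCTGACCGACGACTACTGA
ITGA6 exon 25, chr2:173366500-173366629, forward strand, 130 nt, of which 108 coding, left out by 4 coding transcripts: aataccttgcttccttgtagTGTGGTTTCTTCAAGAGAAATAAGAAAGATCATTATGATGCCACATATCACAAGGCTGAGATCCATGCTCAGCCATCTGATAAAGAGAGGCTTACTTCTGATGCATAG

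Counted from the first base, the longest run of bases at the same place in both is TTCTTCAAG, 9 bases that begin at base 7 of either exon. A run of the same length, AGAGAGGCT, also occurs in both, at different base numbers. In base composition the 2 printed coding stretches differ, with 59.5% G or C in ITGA3 and 39.8% in ITGA6.

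The β1 gene and the 5 genes of the α chains that pair with it, which are most of the members, held most of the member events. ITGB1, whose product is the shared β chain of collagen, fibronectin and laminin receptors, was listed with 7, 6, 5 and 6 events in the order A8, A8i, A8i-A, A8i-B, which holds wherever 4 numbers follow each other below. Its 24 events over the libraries were the most of any member, and 8.01% of all genes had a sum at least as large. ITGA3, a laminin receptor subunit, was listed with 5, 5, 6 and 6 events. Its 22 events placed it within the top 9.94% of genes, and the 4 libraries lay within 1 event of each other. ITGA6, the other laminin receptor subunit, was listed with 3, 2, 4 and 5 events, so that both re-expressing lines lay above A8 and A8i.

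ITGA5, the fibronectin receptor subunit, was listed with 2, 4, 4 and 3 events, fewest in A8. It was the only member with more events in A8i than in A8. The collagen receptor subunit gene ITGA2 was listed with 2, 1, 1 and 2 events, and A8 and A8i-B held the higher number. ITGA10, also a collagen receptor subunit and best known from cartilage, was listed with 3, 0, 4 and 3 events, and A8i was the library without one. Taking events as independent counts, a floor of 3 events was set for each 0. For A8i this is 0.0146% of the events of that library, and as many events as the gene had in A8 and in A8i-B. Its range of 4 events was the widest among the members, and 13.3% of all genes had a range at least as wide. In all, 24 genes (0.243%) had at least 3 events in A8, A8i-A and A8i-B and 0 in A8i, a pattern chosen after the values of ITGA10 had been seen. The same pattern with the 0 in A8i-A, A8i-B or A8 was met by 13, 6 and 4 genes, without a member. It was thus most frequent with the 0 in A8i, the library with the fewest events (20535). With the 0 in A8, the library with the most events (24513), it was least frequent. Whether the library totals set these counts was not tested.

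Outside the β1 group, ITGB5, whose product pairs with αV in a vitronectin receptor, was listed with 5, 3, 3 and 5 events. A8 and A8i-B stood at the same number, 2 events above the other libraries. ITGAV, the gene of that αV partner, was listed with 0, 0, 1 and 0 events. ITGA1, of a further collagen receptor subunit, was listed with 0, 0, 0 and 1. ITGAE, the αE subunit of intraepithelial lymphocytes and a receptor for E-cadherin, was listed with 1 event in every library, as were 797 other genes.

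For the αXβ2 pair the table holds few events. ITGAX was listed with 1, 0, 0 and 0 events. By the same floor each 0 allows up to 3 events, which is 0.0146, 0.0132 and 0.0124% of the events of those libraries. No difference of αX between the lines was detectable with that floor. The same 4 numbers were shared by 350 other genes, among them TLN1 and FERMT1, of talin and a kindlin. ITGB2 was listed with 3, 2, 3 and 2 events. Here A8 and A8i-A stood 1 event above A8i and A8i-B, and 736 genes (7.45%) had both A8 and A8i-A above both A8i and A8i-B. The members of that set were 1 of 10, ITGB2, and its genes on the adhesion and marker lists were SHARPIN, FERMT3 and VIM. Together, αX and β2 had 4, 2, 3 and 2 events. The A8i number was 50.0% of that of A8, with a 95% exact interval from 4.52 to 349%, and A8i-B gave the same values against A8.

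The antisense gene ITGB2-AS1, which overlaps ITGB2 on the other strand, was listed with 1 event in A8 and 0 in the other lines. The strand setting of the libraries and of the counting is not stated, so it is unknown whether events of overlapping genes on opposite strands were told apart. The annotation places a gene on the opposite strand over part of ITGA2, ITGA5, ITGA6, ITGA10, ITGAX, ITGAE, ITGB1 and ITGB5 as well, and over no part of ITGA3. Of the 13 leukocyte markers, 2 were in the table, CD14 with 0, 0, 0 and 1 events and CORO1A with 0, 0, 0 and 2. Both stood at 0 in A8, the library with the ITGAX event.

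**Figure D1:**
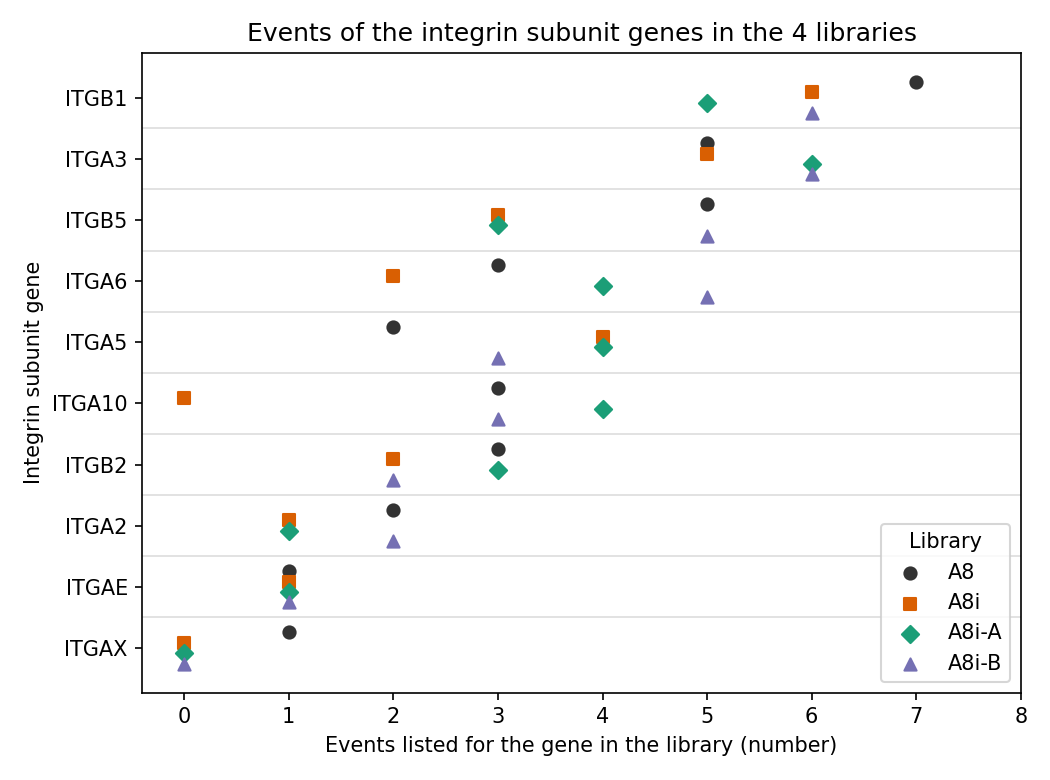
Events listed for each integrin subunit gene (vertical axis, ordered by the sum over the libraries) on the horizontal axis, with 1 marker per library. ITGB1 and ITGA3 sit between 5 and 7 in all 4 libraries, whereas ITGA10 runs from 0 in A8i to 4 in A8i-A and ITGAX is above 0 in A8 alone.

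By their sums over the 4 libraries the members ran from ITGB1 with 24 events, ITGA3 with 22, ITGB5 with 16, ITGA6 with 14 and ITGA5 with 13 to ITGA10 and ITGB2 with 10 each, ITGA2 with 6, ITGAE with 4 and ITGAX with 1. The median member sum was 11.5 events, against 6 over all genes. Since genes differ in length and in the number of their transcripts, this order is one of event numbers and not of levels. Over the libraries, 1 member had the same number in all, 4 ranged over 1 event, 3 over 2, ITGA6 over 3 and ITGA10 over 4. Of all genes, 15.3, 39.4, 20.7, 11.3 and 5.8% had ranges of 0, 1, 2, 3 and 4 events. The median range was 1.5 events for the members and 1 for all genes. An exact Poisson 95% interval runs from 0.0253 to 5.57 around 1 event and from 2.81 to 14.4 around 7, taking events as independent and covering counting error only. Around 0 events the interval reaches 3.69, above the floor of 3 events set for a 0. It overlaps the interval around 7, the highest number of a member. None of the 60 comparisons of a member between 2 libraries could thus show intervals apart (0 of 60). The count is therefore no evidence that the libraries are alike.

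Summed over the 10 genes, the libraries had 32, 24, 31 and 33 events. A8i was the lowest, as it was for the whole library. The A8i sum was 75.0% of that of A8 (95% exact interval 42.3 to 131%), beside 83.8% for all events of the libraries. The A8i-A sum was 129% of that of A8i (73.4 to 230%) and the A8i-B sum 138% (78.8 to 243%), beside 110.5 and 118.0% for all events. As a share of the library, the members took 0.131, 0.117, 0.137 and 0.136%, and the exact Clopper-Pearson intervals of the 4 shares, which together run from 0.0749 to 0.194%, all overlap. Without ITGA10, an alternative chosen after its values had been seen, the members had 29, 24, 27 and 30 events, or 0.118, 0.117, 0.119 and 0.124% of the libraries.

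The 7 α genes had 17, 13, 20 and 20 events, with both re-expressing lines above A8 and A8i. The 3 β genes had 15, 11, 11 and 13. Per gene, the β genes had the larger mean in every library, from 3.67 to 5 events against 1.86 to 2.86 for the α genes, with ITGB1 the highest of the 3 in each. The medians per gene were 2, 1, 4 and 3 events for α and 5, 3, 3 and 5 for β, so that in A8i-A the α median was the larger. In A8i-A against A8i the α sum was 154% (95% exact interval 72.8 to 337%) and the β sum 100% (39.3 to 254%), and both intervals hold 100%. Without ITGA10, left out after its values had been seen, the α sum was 123.1% (55.5 to 278.1%), beside 110.5% for all events. The α share of the member events was 53.1% for A8 (exact Clopper-Pearson interval 34.7 to 70.9%), 54.2% for A8i (32.8 to 74.4%), 64.5% for A8i-A (45.4 to 80.8%) and 60.6% for A8i-B (42.1 to 77.1%). At this depth the shares are not distinguishable.

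**Figure D2:**
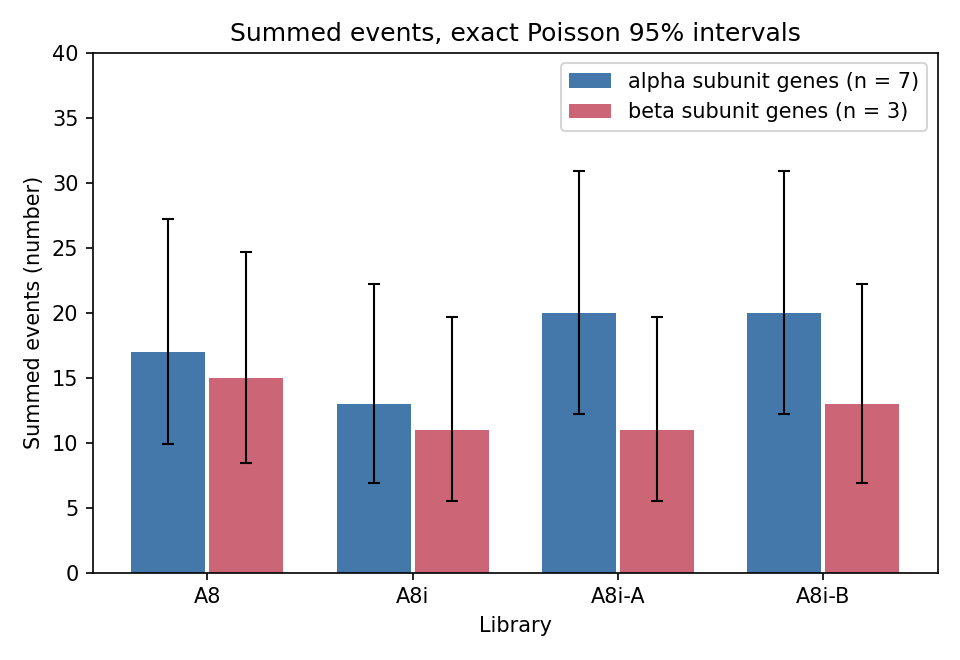
Summed events (vertical axis) of the 7 α and the 3 β subunit genes in each library, with exact Poisson 95% intervals as error bars that cover counting error only. The α bars stand at 17, 13, 20 and 20 and the β bars at 15, 11, 11 and 13, and the intervals overlap throughout.

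Among the α genes, the 5 whose products pair with β1 (ITGA2, ITGA3, ITGA5, ITGA6 and ITGA10) had 15, 12, 19 and 19 events. The laminin receptor genes ITGA3 and ITGA6 together had 8, 7, 10 and 11. The collagen receptor genes ITGA2 and ITGA10 had 5, 1, 5 and 5, and the single event in A8i belonged to ITGA2. The leukocyte subunit genes ITGAX, ITGAE and ITGB2 had 5, 3, 4 and 3.

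The silenced line was compared with the parental line to ask what differs once ECM1 is silenced. A difference of at least 2 events was taken as the size to count, since 1 event is the smallest step of the scale. In A8i against A8, ITGA5 was higher by 2 events, ITGA10 was lower by 3 and ITGB5 was lower by 2. That is 1 of 10 members higher, where 6.89% of all genes were, and 2 of 10 lower, where 16.6% of all genes were. By any difference, 1 member was higher, 7 were lower and 2 were the same, and over all genes 19.7% were higher and 38.5% lower. The median member difference was -1 event and that of all genes 0. With each library scaled to the mean total, ITGA5 was still higher and ITGA10 still lower by at least 2, ITGB5 was not, and all genes divided into 8.06% higher and 7.03% lower.

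The re-expression of ECM1a was compared with the silenced line to ask what goes with the secreted isoform. In A8i-A against A8i, ITGA10 was higher by 4 events and ITGA6 by 2, and no member was lower by this size (0 of 10). These 2 of 10 stand beside 13.6% of all genes that were higher and 8.21% that were lower. By any difference 4 members were higher, 1 was lower and 5 were the same, beside 33.6, 23.3 and 43.1% of all genes. Scaling left ITGA10 past the size, and all genes then divided into 8.49% higher and 8.49% lower. ITGA6, ITGA10 and ITGB2 were lower in A8i than in A8 and higher in A8i-A than in A8i, as were 2001 genes in all (20.2%). Both steps share the A8i library, so that a low number there enters each.

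The re-expression of ECM1b gave ITGA6 and ITGA10 higher by 3 events each and ITGB5 higher by 2 in A8i-B against A8i. These 3 of 10 members stand beside 16.6% of all genes higher and 7.18% lower, and no member was lower (0 of 10). With scaling, ITGA6 and ITGA10 remained past the size, and all genes divided into 6.9% higher and 8.07% lower. For ITGA10 the 2 re-expressing lines were thus both above A8i, by 4 and 3 events, and both comparisons share the 0 of A8i.

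Between the isoforms, ITGB5 alone differed by 2 events, with 3 in A8i-A and 5 in A8i-B. In A8i-A against A8i-B, 0 of 10 members were higher, beside 9.56% of all genes, and 1 of 10 was lower, beside 13.7%. After scaling no member was past the size (0 of 10), with 9.6% of all genes higher and 6.11% lower. ITGAX was at 0 in both lines, and ITGB2 had 3 events in A8i-A and 2 in A8i-B. In A8i-A against A8, ITGA5 was higher by 2 events (9.22% of all genes higher), and ITGB1 and ITGB5 were lower by 2 (13.7% lower). Scaling kept ITGA5 and took both β genes under the size, and all genes divided into 9.25% higher and 6.26% lower. In A8i-B against A8, ITGA6 was higher by 2 events and no member was lower (0 of 10), beside 11.4 and 11.6% of all genes. After scaling ITGA6 was under the size too (0 of 10 members), with 5.19 and 5.35% of all genes past it.

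**Figure D3:**
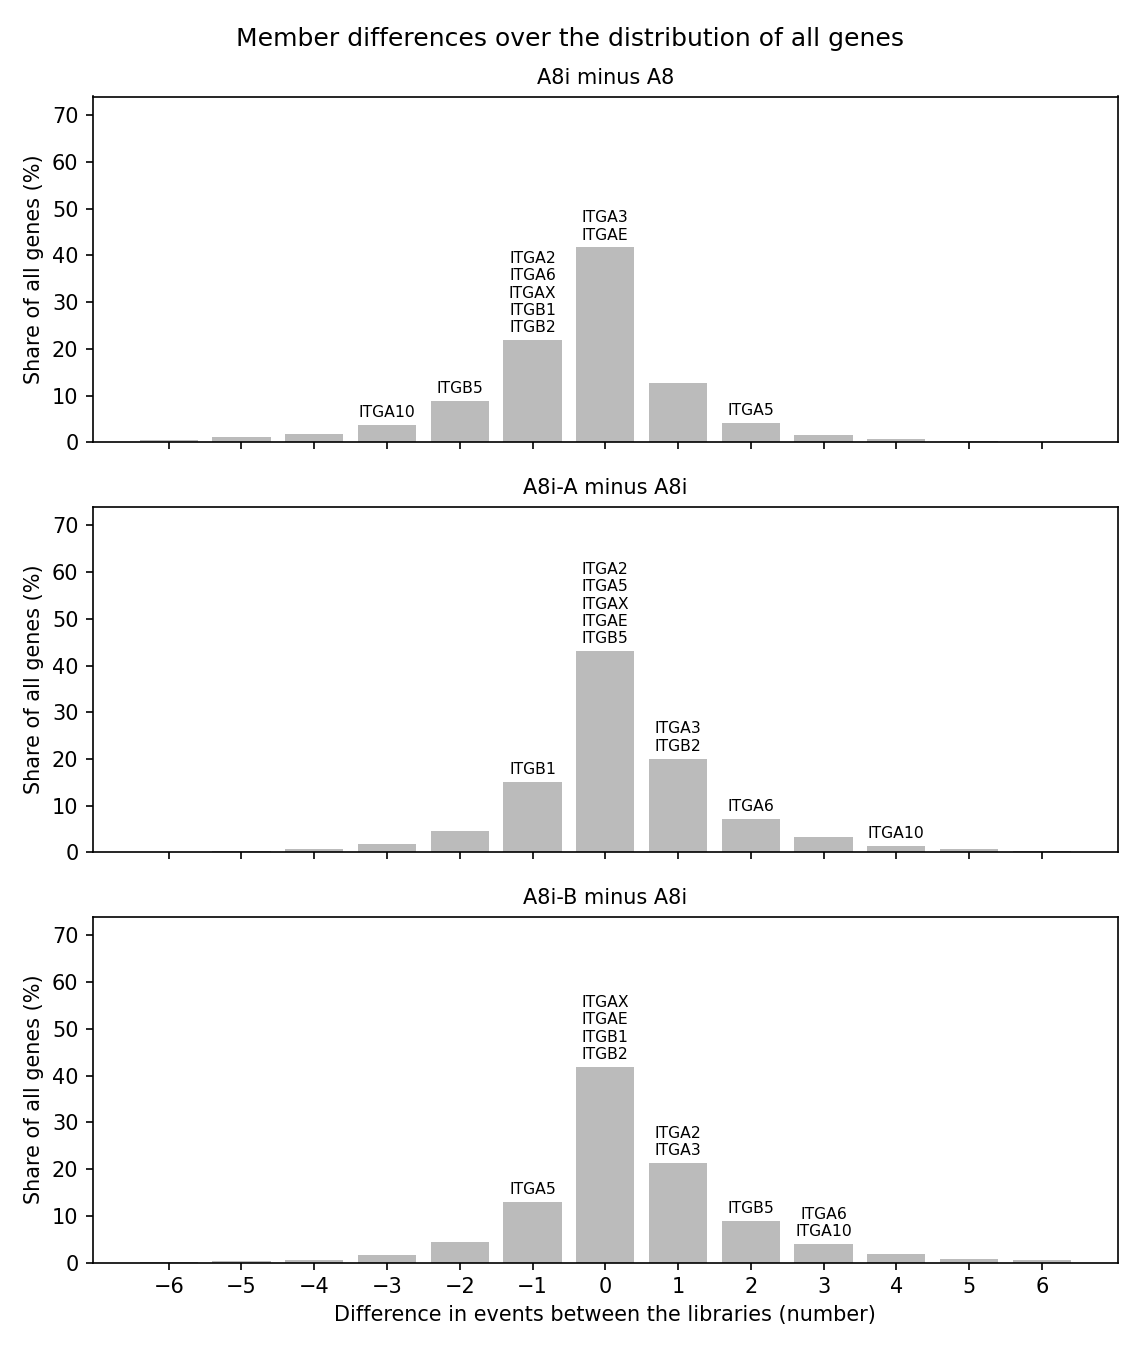
Share of all genes in percent (vertical axis, grey bars) by the difference in events between 2 libraries (horizontal axis, drawn from -6 to 6), with the integrin subunit genes written above the bar of their own difference. In A8i minus A8, 5 members sit at -1 and ITGA10 at -3, and in A8i-A minus A8i and A8i-B minus A8i ITGA10 sits at 4 and 3.

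Matrix ligands of integrins were in the table with 16 of 41 listed genes, and their summed events were 37, 35, 36 and 42. Laminin chains held the widest differences. LAMA5, the α5 laminin chain of epithelial basement membranes, was listed with 3, 8, 1 and 6 events, so that A8i and A8i-B were high and A8 and A8i-A low. LAMA3, the α chain of laminin-332 to which α3β1 and α6β4 bind, was listed with 4, 0, 1 and 3 events. FN1, of fibronectin, the ligand of α5β1, was listed with 9, 11, 10 and 11. Of the 16 ligand genes, 2 were higher and 2 lower by at least 2 events in A8i against A8, and 3 were higher and 1 lower in A8i-A against A8i as well as in A8i-B against A8i. Over all genes the shares higher and lower were 6.89 and 16.6%, 13.6 and 8.21%, and 16.6 and 7.18% in these 3 comparisons. The median ligand difference was 0 events in each.

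Adaptor and signalling genes of integrin adhesion were in the table with 46 of 59 listed genes and had 141, 129, 133 and 142 events. In A8i against A8, 6 of 46 were higher and 8 lower by at least 2 events, beside 6.89 and 16.6% of all genes. PTK2, of focal adhesion kinase, and ITGB1BP1, of a protein that binds the β1 tail, held the most events of the list, with 11, 12, 10 and 10 and with 10, 11, 10 and 12. ZYX, of the focal adhesion protein zyxin, was listed with 4 events in A8 and with 0 in the 3 lines that carry the hairpin, where each 0 allows up to 3. SHARPIN, of an inhibitor of integrin activation, was listed with 4, 1, 4 and 1, the order that ITGB2 had over the lines. ILK, of integrin-linked kinase, was listed with 7, 4, 4 and 7, so that A8 and A8i-B were the high libraries.

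In A8i-A against A8i, 6 of 46 adaptor genes were higher and 5 lower, beside 13.6 and 8.21% of all genes. In A8i-B against A8i 7 of 46 were higher and 5 lower, beside 16.6 and 7.18%. PXN, of paxillin, was listed with 10, 10, 13 and 9 events, highest in A8i-A. TGFB1I1, of its relative Hic-5, was listed with 7, 9, 12 and 6, and A8i-A was again the highest. AKT2, of a kinase downstream of integrins, was listed with 9, 7, 10 and 12, with A8i the lowest.

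Tetraspanins and other membrane partners were in the table with 12 of 16 listed genes, with 44, 44, 40 and 48 events. CD9, a tetraspanin that associates with β1 integrins, was listed with 4, 0, 1 and 1 events, highest in A8. The exact interval around 1 event reaches 5.57, above the 4 events of A8. CD44, the hyaluronan receptor with its well-known variable exons, was listed with 16, 17, 13 and 17, lowest in A8i-A. SLC3A2, the CD98 heavy chain that binds β tails, was listed with 7, 7, 6 and 6. Of the 12 genes, 1 was higher and 1 lower in A8i against A8, 0 and 1 in A8i-A against A8i, and 1 and 0 in A8i-B against A8i, beside the same shares of all genes.

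The gene models of the α and β subunits differ in exons and in transcripts. In GRCh37 with GENCODE v44, the reference transcripts of the 7 α genes have 26 to 31 exons and those of the 3 β genes 15 or 16. By contrast, ITGB1 has 36 annotated transcripts and ITGB2 26, the most of the members, and ITGA10 has 4, the fewest. Over the 10 members, which share libraries and depth, the summed events had a Spearman's rho of 0.701 with the number of annotated transcripts and of -0.726 with the number of exons. With the number of distinct annotated junctions rho was -0.265, and with that of exons that a transcript leaves out -0.0588. Across the 9818 genes of the table with an annotation, rho was 0.466 for transcripts and 0.238 for the largest number of exons in a transcript of the gene. The exon measures of the members and of all genes differ, so their values are not compared.

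ITGA10 had 10 events, where genes with 4 to 6 transcripts had a median of 4, and ITGA6 had 14, where genes with 7 to 12 had a median of 6. ITGAX, with 7 transcripts, had 1 event, below the lower quartile of 3 for genes of that number. ITGB2, with its 26 transcripts, had 10 events, where genes with 25 or more had a median of 13. The annotation lists 2 to 4 exons that a transcript leaves out for 9 of the members and 0 for ITGB1, which had the most events. Only junctions between exon edges of the reference transcript enter this count. By distinct annotated junctions ITGB1 has 57, the most of the members.

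In genomic position the members are spread over 9 chromosomes, with ITGA3 and ITGAE both on chromosome 17. On GRCh37 they lie at chr5:52285170-52390609 (ITGA2, forward strand), chr17:48133332-48167845 (ITGA3, forward), chr12:54789045-54813050 (ITGA5, reverse), chr2:173292082-173371187 (ITGA6, forward), chr1:145524969-145543868 (ITGA10, forward), chr16:31366455-31394320 (ITGAX, forward), chr17:3617922-3704482 (ITGAE, reverse), chr10:33176201-33294720 (ITGB1, reverse), chr21:46305868-46351904 (ITGB2, reverse) and chr3:124480795-124620265 (ITGB5, reverse).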

How the data were processed

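Total RNA of the 4 lines was extracted with TRIzol and sequenced in pairs on a HiSeq instrument. Per the study's methods, reads were trimmed with Trim Galore, checked with FastQC, mapped to hg19 with TopHat and quantified with Cufflinks. The submitters' processing notes name Cufflinks 2.2.1 but the mouse build GRCm38, whereas 9885 of 9885 gene IDs are human Ensembl IDs. The deposited values are event numbers that the authors did not scale to depth as far as the totals show; reads per library are unknown. No FPKM or read counts were analysed, and 0 columns of values were left unused.

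Members and gene lists were chosen with earlier results of these data known. Besides the members, the text names ECM1, the 2 list genes with the most events per list, list genes that differ by at least 3 events in A8i against A8 or A8i-A against A8i, and list genes with the 4 numbers of ITGAX or ITGB2; ITGB2-AS1, EPCAM and FERMT3 were named after their values were seen. A gene that meets this rule is not reported here. Intervals are 95% exact Poisson or Clopper-Pearson. Genes were joined by Ensembl ID to GENCODE v44 on GRCh37 (9818 matched, 99.3%). Counting of differences was checked on simulated numbers that were alike in both libraries except for planted differences of 3 events. This checks the code and cannot show how often noise gives a call. Alternatives were scaling by library total, other sizes of difference, left-out members and another background. Python 3.11.15, numpy 2.4.6, pandas 2.3.3, scipy 1.17.1 and matplotlib 3.10.9 were used.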

Additional observations from a re-analysis of the deposited data

How the results depend on the processing

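No paired analysis was possible because each line has 1 library. Of 73 values recomputed under an alternative, 14 moved by more than 1.5 times (counts) or beyond the counting interval, and 59 moved by less; a count that moved by less may still be of other members. With a difference of at least 1 event in place of 2, members past the size numbered 8 in A8i against A8 (19.7% of all genes higher and 38.5% lower), 5 in A8i-A against A8i (33.6 and 23.3%), 6 in A8i-B against A8i (38 and 20.2%), 7 in A8i-A against A8i-B (25 and 32.4%), 8 in A8i-A against A8 (24.9 and 33.4%) and 6 in A8i-B against A8 (28.6 and 29.6%). With a 2-fold difference in events + 1, they numbered 2 in A8i against A8, where ITGA10 and ITGAX were lower and ITGA5 and ITGB5 were lost (8.62% of all genes higher and 20.2% lower), 1 in A8i-A against A8i (ITGA10, with ITGA6 lost; 18.1 and 11.1%), 2 in A8i-B against A8i (ITGA6 and ITGA10, with ITGB5 lost; 20.4 and 9.21%), 0 in A8i-A against A8i-B (11.7 and 16.2%), 1 in A8i-A against A8 (ITGAX lower, with ITGA5, ITGB1 and ITGB5 lost; 11.3 and 16.2%) and 1 in A8i-B against A8 (ITGAX lower, with ITGA6 lost; 13 and 13.8%). With libraries scaled to the mean total, ITGB5 was lost in A8i against A8 and in A8i-B against A8i, and the number became 1 in A8i-A against A8i (ITGA10), 0 in A8i-A against A8i-B, 1 in A8i-A against A8 (ITGA5) and 0 in A8i-B against A8. The median share of genes with at least as many events as a member was 28.9% over all genes and 46.5% against the 5986 genes that no library lists at 0, a background that by its construction leaves out genes at 0. The member sums and the α share kept their values within their counting intervals under each alternative run. Those intervals are so wide that this is no sign of stable values. Without the member with the most events, the A8i α share went from 54.2 to 72.2%, still inside its interval of 32.8 to 74.4%. With numbers from 0 to 7 for a member, the counting intervals of any 2 numbers overlap, so that they could show no difference between libraries.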
